A study of Mus musculus with 17 samples.

Results

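The genes followed here carry glucose into the cell, split it to pyruvate and pass lactate out again. They were 10 genes chosen by name: the glucose transporter Slc2a1, the enzymes Hk2, Pfkp, Pfkl, Aldoa, Tpi1, Pgk1, Pgam1 and Eno1, and the lactate exporter Slc16a3. Each was read from the probe sets that the platform's annotation pairs with that symbol alone. 9 of the 10 were found, on 23 of the 45037 probe sets tested, against 18193 genes found in all. The annotation used here gave no such probe set for Eno1. The samples were pancreatic islets of C57BL/6 mice, untreated and with no altered gene named in the labels, and no age of the mice is stated there. Each of 6 batches was a pool of islets from 4 mice, divided into portions that were harvested fresh (0 h) or kept for 24 or 48 h in F12K medium with serum. The 17 arrays comprised 5 of fresh islets and 6 of each culture time, since the fresh array of batch 5 is not analysed here. A replicate number below is the batch number.

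Glycolysis turns glucose into pyruvate in the cytosol and yields ATP without oxygen, and cells that rely on it reduce pyruvate to lactate and export it. Beta cells of the islet use the pathway as a glucose sensor. In the mouse they take glucose in through Slc2a2 and are known for low lactate dehydrogenase A and low monocarboxylate transport. Slc2a1, Hk2, Aldoa, Pgk1 and Slc16a3 are classic targets of the hypoxia-inducible factors (HIF), which accumulate when oxygen is low.

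Expression is given as the deposited log2 value of a probe set, and a difference as the later time minus the earlier. Each gene is represented by its probe set with the highest mean over the 17 arrays. The array medians lay between 3.47 and 3.57, and the median correlation of an array with the others of its time was between 0.987 and 0.994. No detection call came with the values. Signal around 3.52, the median of the whole table, could therefore not be told from background. The tissue label was checked on beta cell markers, of which all 8 measured were above that median, with a list mean of 11.00 to 11.09 on the 0 h arrays. An islet holds several cell types, and in bulk RNA fewer cells of a type and less RNA per cell cannot be told apart.

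To show what the genes share in sequence, the 250 bases before each start site that RefSeq lists (build GRCm38.p6) were searched on both strands for ACGTG and GCGTG, the core letters of HIF-bound elements. All 9 genes matched the RefSeq table, with 11 start sites. Of the 9, 8 (88.9%) held a match before at least 1 start, where 41.5% of all 27025 genes in that table did. The windows of these genes were also richer in G and C, with a median of 64.0% against 52.4% over all windows. The palindrome CACGTG, which contains ACGTG and is read by other factors too, was in 0 of the 11 windows and in 6.02% of all windows. A match is a description of letters, not a binding site. The genes were chosen by name and several are classic HIF targets, so a high share could be foreseen and is no test. The windows of 5 genes are printed. Pgk1 has a match on each strand and Hk2 has matches far from and near the start. Aldoa is shown at its second listed start. Slc16a3 has matches but stayed at background on these arrays, and Tpi1 is the gene with no match. They lie at chrX:106186850-106187099 on the plus strand, chr6:82774455-82774704 on the minus strand, chr7:126799255-126799504 on the minus strand, chr11:120948817-120949066 on the plus strand and chr6:124814159-124814408 on the minus strand. Capitals mark the matches, which read CACGT where the match is on the other strand.
Pgk1: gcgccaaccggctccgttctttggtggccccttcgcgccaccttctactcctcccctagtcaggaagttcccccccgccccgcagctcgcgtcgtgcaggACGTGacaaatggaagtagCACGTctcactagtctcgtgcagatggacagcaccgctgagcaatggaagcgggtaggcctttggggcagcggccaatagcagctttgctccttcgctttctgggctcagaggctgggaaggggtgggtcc
Hk2: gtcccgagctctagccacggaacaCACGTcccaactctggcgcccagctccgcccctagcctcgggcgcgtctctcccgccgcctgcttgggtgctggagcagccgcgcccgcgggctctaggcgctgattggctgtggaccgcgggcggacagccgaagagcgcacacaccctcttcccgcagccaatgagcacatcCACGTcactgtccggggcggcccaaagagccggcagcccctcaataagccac
Aldoa: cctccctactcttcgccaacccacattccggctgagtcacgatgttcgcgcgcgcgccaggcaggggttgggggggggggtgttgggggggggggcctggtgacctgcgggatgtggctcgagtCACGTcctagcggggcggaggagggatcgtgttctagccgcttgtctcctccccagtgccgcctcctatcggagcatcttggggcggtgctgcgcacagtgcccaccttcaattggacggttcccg
Slc16a3: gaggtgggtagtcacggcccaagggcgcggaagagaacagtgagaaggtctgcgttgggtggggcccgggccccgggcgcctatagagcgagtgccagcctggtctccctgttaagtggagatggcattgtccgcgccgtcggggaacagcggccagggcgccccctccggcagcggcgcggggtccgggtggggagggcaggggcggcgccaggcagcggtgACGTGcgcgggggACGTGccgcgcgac
Tpi1: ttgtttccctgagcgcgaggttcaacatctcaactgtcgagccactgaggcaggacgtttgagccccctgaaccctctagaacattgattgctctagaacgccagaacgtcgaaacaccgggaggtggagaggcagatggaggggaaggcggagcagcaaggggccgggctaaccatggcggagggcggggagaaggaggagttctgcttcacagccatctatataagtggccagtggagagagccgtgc
Counted upstream of the start site, the matches of Pgk1 stood at 150 and 131 bases, those of Hk2 at 226 and 52, that of Aldoa at 126 (the same letters lie 202 bases before its start listed last), and those of Slc16a3 at 27 and 14. Matches were also found for Slc2a1 at 61 and 36 bases, for Pfkp at 136, 68 and 23, for Pfkl at 99 and for Pgam1 at 175, 114 and 88.

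The first comparison asked how the pathway's transcripts differed between fresh islets and islets kept for 24 h. Hk2, Pfkp, Aldoa and Pgk1 rose, and 0 of the 9 fell. A gene passed at a Benjamini-Hochberg adjusted p under 0.05 in limma over all probe sets, a rule that called 12.1% of all genes, 5.44% higher and 6.66% lower. The median log2 difference of the 9 was 0.73, against -0.01 over all genes, and 8 of 9 had an unadjusted p under 0.05, as had 25.5% of all genes. Pfkp, Pfkl, Aldoa and Pgk1 were higher on every 24 h array than on every 0 h array, a separation that 3.92% of all genes showed. With the batch as a fixed block 7 of the 9 passed. When 1 array was left out, 3 to 7 passed. The 7 came without 24 h replicate 5, which had the lowest mean of the 9 genes among the 24 h arrays. Leaving it out raises the 24 h mean of these genes by construction. The shares of all genes above are those of the main fit, not of these refits. Of the 23 probe sets, 11 passed at 24 h, where 3.86% of all probe sets were called higher.

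At 48 h, Hk2, Pfkp, Pfkl, Aldoa, Tpi1 and Pgk1 were higher than at 0 h, and 0 of the 9 fell. The same rule called 11.7% of all genes, 6.45% higher and 5.27% lower. The median difference of the 9 was 0.75, against -0.02 over all genes. The 6 genes had no overlap between the 48 h and 0 h arrays, as had 5.17% of all genes. Both comparisons share the 0 h arrays. Between 24 h and 48 h, 0 of 9 passed in limma and 0 had an unadjusted p under 0.05, where 14.2% of all genes had one. The median difference of the 9 was 0.02. In that comparison 0.759% of all genes passed, 0.429% higher and 0.33% lower. Among the 23 probe sets, 4 had an unadjusted p under 0.05 there, all of them of Aldoa and all lower at 48 h. Over all probe sets 11.4% had such a p, and 5.03% had one with a lower value at 48 h.

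**Figure D1:**
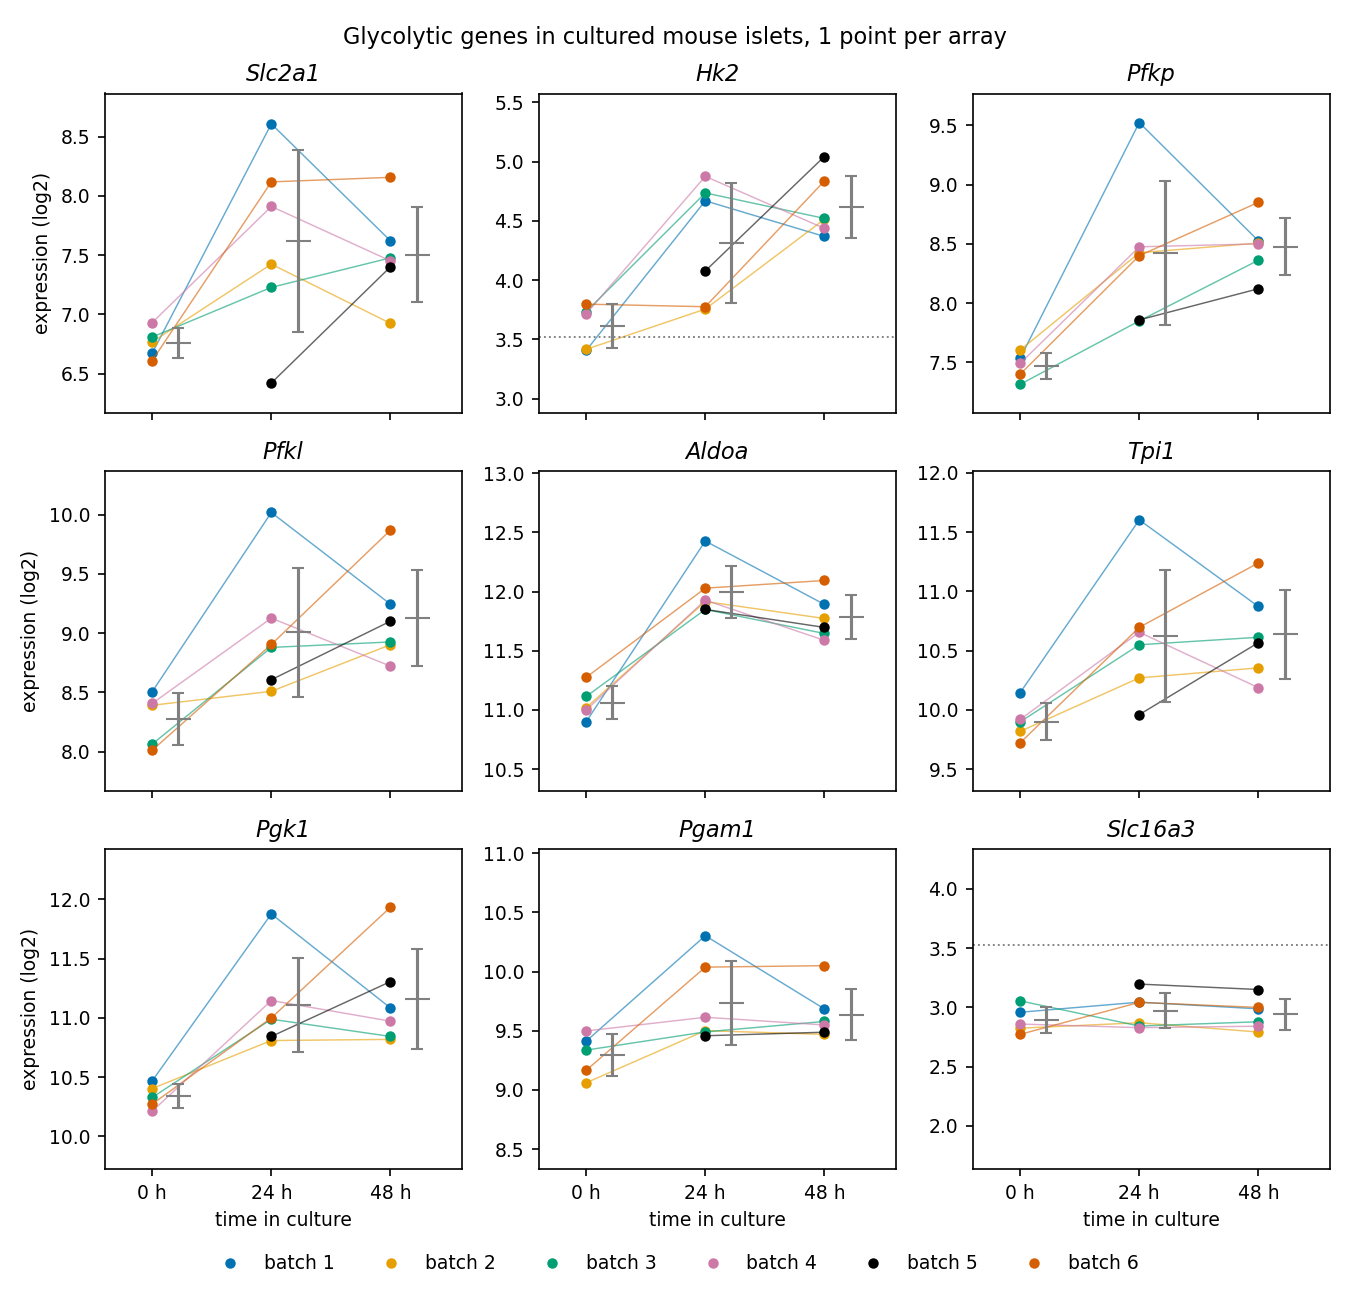
Log2 expression (y axis, its range set for each panel) of the 9 genes against time in culture (x axis), 1 point per array, coloured and joined by batch, with the mean and SD of each time in grey beside the points and the table's median of 3.52 dotted where it falls in range. The 0 h points sit close together, 24 h replicate 1 is the top point of its time for 7 of 9 genes and 48 h replicate 6 for 7 of 9.

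Slc2a1 encodes GLUT1, the high-affinity transporter through which most tissues take up glucose. It read 6.67, 6.77, 6.81, 6.93 and 6.61 on the 0 h arrays (replicates 1, 2, 3, 4 and 6). The 24 h arrays ran from 6.42 through a median of 7.67 to 8.61, and the 48 h arrays from 6.92 through 7.46 to 8.16. The spread was wide at 24 h, where replicate 5 lay below all the 0 h arrays and replicates 1, 4 and 6 were more than 1 log2 unit above the 0 h mean. The differences of 0.86 ± 0.28 (SE, adjusted p = 0.0664) at 24 h and 0.75 ± 0.28 (adjusted p = 0.115) at 48 h did not pass, although the later array was higher in 5 of 5 batches at both times. With the batch as a fixed block the difference was 0.99 at 24 h (adjusted p = 0.0196) and 0.88 at 48 h (adjusted p = 0.0386), and Slc2a1 passed. Of the fits that left out 1 array, Slc2a1 passed only in the one without 24 h replicate 5, its lowest 24 h array. The adjusted p was then 0.00375 at 24 h and 0.0353 at 48 h. The other 2 probe sets of Slc2a1, which are dimmer, passed at both times. They showed 0.94 (adjusted p = 0.0206) and 0.98 (adjusted p = 0.00423) at 24 h, and 0.84 (adjusted p = 0.0410) and 0.99 (adjusted p = 0.00426) at 48 h.

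Hk2 encodes hexokinase 2, which phosphorylates glucose on entry and can bind to mitochondria. It read 3.41, 3.42, 3.73, 3.72 and 3.80 at 0 h, 3.75 to 4.88 at 24 h (median 4.37) and 4.37 to 5.04 at 48 h (median 4.52). The 0 h arrays straddled the table's median, so the folds of 1.63 and 2.01 may be compressed by background. At 24 h replicates 2 and 6 were still at the level of the 0 h arrays and the other 4 were above it, and at 48 h every array was. The log2 difference was 0.70 ± 0.19 (SE, adjusted p = 0.0281) at 24 h and 1.01 ± 0.19 (adjusted p = 0.00232) at 48 h. Hk2 was higher in 4 of 5 batches at 24 h and in 5 of 5 at 48 h. The 24 h call was lost with the batch as a fixed block (adjusted p = 0.0568). It was also lost when 0 h replicate 1 or 2 or 24 h replicate 1, 3 or 4 was left out (adjusted p = 0.0666 to 0.0718). The 48 h call was kept in every fit run.

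Pfkp encodes the platelet type of phosphofructokinase, the enzyme of the committed step. It read 7.54, 7.60, 7.31, 7.49 and 7.40 at 0 h, 7.85 to 9.52 at 24 h (median 8.41) and 8.12 to 8.85 at 48 h (median 8.50). No later array reached down to the 0 h range, and 24 h replicate 1 stood above the rest. Pfkp rose 1.94-fold at 24 h (0.95 ± 0.21 (SE), adjusted p = 0.00736) and was 2.01-fold above 0 h at 48 h (1.01 ± 0.21, adjusted p = 0.00519). Its 2 other probe sets were under the table's median on average and did not pass. For the mean of the 3 probe sets the differences were 0.45 (adjusted p = 0.0213) and 0.48 (adjusted p = 0.0153).

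Pfkl encodes the liver type of the same enzyme. It read 8.51, 8.39, 8.06, 8.41 and 8.01 at 0 h, 8.51 to 10.02 at 24 h (median 8.89) and 8.72 to 9.87 at 48 h (median 9.01). The lowest 24 h array, replicate 2, only just cleared the highest 0 h array. The difference at 24 h was 0.73 ± 0.23 (SE) and missed the threshold (adjusted p = 0.0545), and with the batch as a fixed block it passed (adjusted p = 0.0398). It also passed when 24 h replicate 2 or 5 or 48 h replicate 6 was left out (adjusted p = 0.0307 to 0.0401). At 48 h Pfkl was 1.80-fold higher (0.85 ± 0.23, adjusted p = 0.0245). That call was lost without 0 h replicate 3, 0 h replicate 6 or 48 h replicate 6 (adjusted p = 0.0543 to 0.0632). A second probe set of Pfkl passed at both times, by 0.99 (adjusted p = 0.00706) and 1.11 (adjusted p = 0.00323), and the third was under the table's median on all 17 arrays.

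Aldoa encodes aldolase A, which cleaves fructose bisphosphate into triose phosphates. It read 10.90, 11.02, 11.11, 11.00 and 11.28 at 0 h, 11.85 to 12.43 at 24 h (median 11.92) and 11.59 to 12.09 at 48 h (median 11.73). Neither later time overlapped the 0 h arrays. Aldoa rose 1.91-fold at 24 h (0.94 ± 0.11 (SE), adjusted p = 1.24e-05) and was 1.65-fold above 0 h at 48 h (0.72 ± 0.11, adjusted p = 0.000287). From 24 h to 48 h it was lower in 5 of 6 batches, with a difference of -0.22 ± 0.10 (SE) that did not pass (adjusted p = 0.439). All 5 probe sets of Aldoa passed at 24 h, with differences of 0.67 to 1.01. At 48 h 4 of 5 passed, where 4.67% of all probe sets were called higher, and the fifth, the dimmest, showed 0.22 (adjusted p = 0.381). All 5 are of the _x_at kind, whose probes can also match other transcripts, so near-identical copies of Aldoa may share their signal.

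Tpi1 encodes triosephosphate isomerase, which interconverts the products of aldolase. It read 10.15, 9.82, 9.90, 9.92 and 9.72 at 0 h, 9.96 to 11.60 at 24 h (median 10.60) and 10.19 to 11.24 at 48 h (median 10.59). Of the cultured arrays, only 24 h replicate 5 lay within the 0 h range. The 24 h difference of 0.72 ± 0.22 (SE) missed the threshold (adjusted p = 0.0504) and passed with the batch as a fixed block (adjusted p = 0.0134). It passed too when 24 h replicate 2 or 5 or 48 h replicate 4 or 6 was left out (adjusted p = 0.0151 to 0.0477). The 48 h difference of 0.74 ± 0.22 passed narrowly (adjusted p = 0.0457). Leaving out 1 array ended that call in 12 of 17 cases (adjusted p = 0.0506 to 0.103), namely any 0 h array, 24 h replicate 3, 4 or 6, and 48 h replicate 1, 3, 5 or 6. The 2 other probe sets of Tpi1 gave 0.62 and 0.70 at 24 h and did not pass at either time.

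Pgk1 encodes phosphoglycerate kinase 1, which makes the first ATP of the pathway. It read 10.47, 10.40, 10.33, 10.21 and 10.27 at 0 h, 10.81 to 11.88 at 24 h (median 10.99) and 10.82 to 11.93 at 48 h (median 11.03). Every later array was above every 0 h array, and 24 h replicate 1 and 48 h replicate 6 were the highest of their times. Pgk1 rose 1.71-fold at 24 h (0.77 ± 0.19 (SE), adjusted p = 0.0134) and was 1.77-fold above 0 h at 48 h (0.82 ± 0.19, adjusted p = 0.00940). Its 2 _x_at probe sets showed 0.39 and 0.31 at 24 h and did not pass. For the mean of the 3 probe sets the differences were 0.49 at both times (adjusted p = 0.0489 and 0.0480).

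Pgam1 encodes the phosphoglycerate mutase of the next step. It read 9.41, 9.06, 9.34, 9.50 and 9.17 at 0 h, 9.46 to 10.30 at 24 h (median 9.56) and 9.47 to 10.05 at 48 h (median 9.56). The lowest later arrays overlapped the highest 0 h array, and the later array was higher in 5 of 5 batches at both times. The 24 h difference of 0.44 ± 0.15 (SE) did not pass (adjusted p = 0.0773) and did with the batch as a fixed block (adjusted p = 0.0269). The 48 h difference of 0.34 ± 0.15 did not pass (adjusted p = 0.182).

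Slc16a3 encodes MCT4, the low-affinity transporter that exports lactate from glycolytic cells. It lay between 2.77 and 3.20 on the 17 arrays, under the table's median on all of them, so its level was not separated from background. Its differences of 0.08 ± 0.08 (SE, adjusted p = 0.701) at 24 h and 0.05 ± 0.08 (adjusted p = 0.812) at 48 h did not pass. A change below the detection range of this single probe set could not be seen. The related transporter Slc16a1 (MCT1) averaged 2.99 on the 0 h arrays and 2.66 on the 24 h arrays, also under that median.

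The 0 h arrays were nearly alike in these genes and the cultured ones were not. The mean over the 9 genes lay between 7.67 and 7.78 at 0 h, between 8.03 and 9.12 at 24 h and between 8.23 and 8.89 at 48 h. Its SDs were 0.05, 0.38 and 0.25, and the SD of the single genes was larger than at 0 h for 9 of 9 at each later time. The 9 include Slc16a3, which was at background (SD 0.11, 0.15 and 0.13 at 0, 24 and 48 h). How many of all genes had a wider spread in culture was not counted, so this may not be particular to the members. Within batches the mean of the 9 was 0.46 to 1.34 higher at 24 h than at 0 h and 0.47 to 1.22 higher at 48 h. From 24 h to 48 h it differed in sign between batches. In batch 1, which had the largest 24 h value, it changed by -0.64 and in batch 4 by -0.26, whereas it changed by 0.06 in batch 2, 0.05 in batch 3, 0.40 in batch 5 and 0.45 in batch 6.

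**Figure D2:**
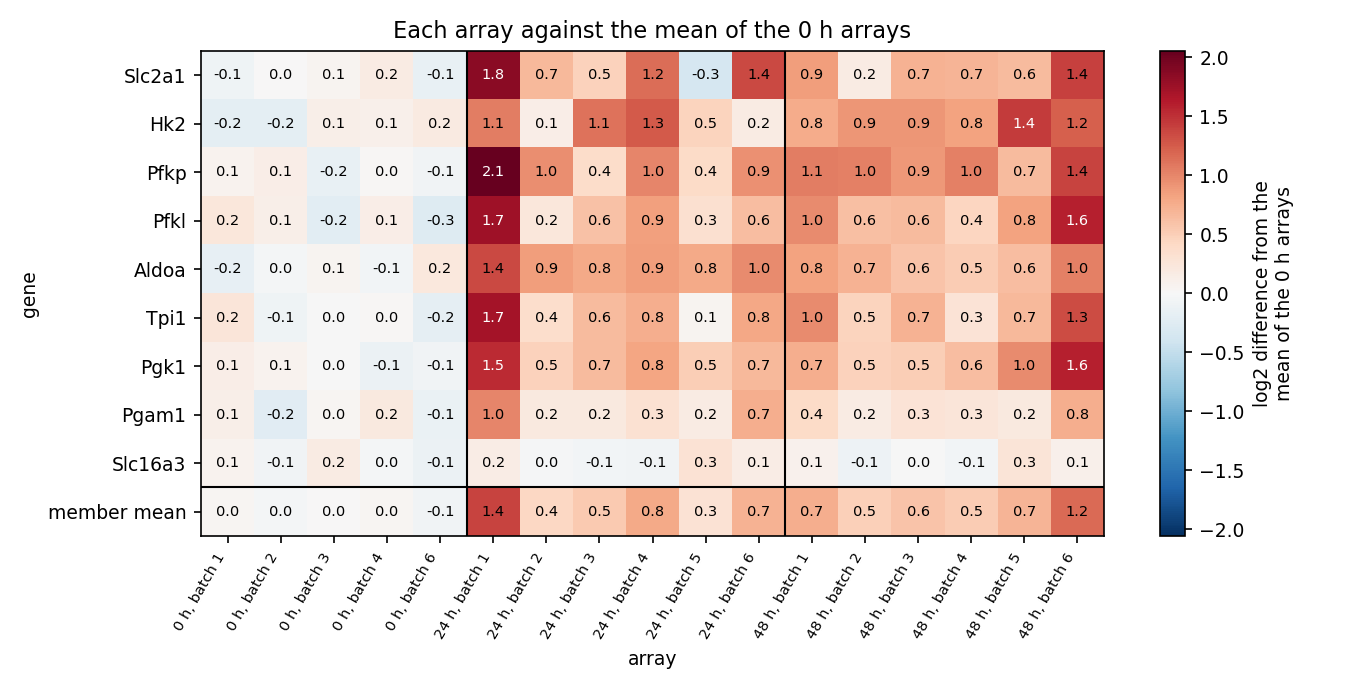
Log2 difference of each array (columns, grouped by time and labelled by batch) from the mean of the 0 h arrays, for each gene and for their mean (rows), with the value printed in each cell and coloured from blue (lower) to red (higher). The 24 h array of batch 1 and the 48 h array of batch 6 are the reddest columns, with gene means of 1.39 and 1.16 above 0 h, and Slc16a3 stays between -0.12 and 0.30.

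The highest arrays were the same for most of the genes. On 24 h replicate 1, 20 of the 23 probe sets were at their highest among the 24 h arrays, and on 48 h replicate 6, 19 of 23 among the 48 h arrays. The median correlation with the arrays of their own time was 0.994 for the first, the highest of the 17 arrays, and 0.993 for the second. The mean of the beta cell marker list was 10.48 on 24 h replicate 1, where the rest of that time had 10.53 to 10.77, and 10.75 on 48 h replicate 6, where the rest had 10.74 to 10.83. The part of these values in the result was not tested. Without both arrays 5 of 9 genes passed at 24 h and 6 of 9 at 48 h. The share of all genes called in that fit is not given here. The differences then were 0.73 and 0.93 for Pfkp, 0.85 and 0.66 for Aldoa, and 0.62 and 0.67 for Pgk1, while Hk2 lost its 24 h call (0.63, adjusted p = 0.0746).

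The genes varied together from array to array to different degrees. Over the 17 arrays, the correlation of a gene with the mean of the other members was 0.96 for Pgk1, 0.95 for Tpi1, 0.94 for Pfkl, 0.89 for Pfkp, 0.88 for Pgam1, 0.87 for Aldoa, 0.86 for Slc2a1, 0.67 for Hk2 and 0.27 for Slc16a3. On deviations from the mean of each time, which leave out the difference between times, it was 0.93 for Tpi1, 0.92 for Pfkl and 0.91 for Pgk1, but 0.30 for Hk2 and 0.15 for Slc16a3. These are descriptions over 17 arrays that share batches and 1 normalization.

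Among 11908 other genes above the table's median on average, the 8 most like the mean of the members over 17 arrays were Fam162a (r = 0.95), Ero1a (0.93), Adm (0.93), Pfkfb3 (0.92), Mif (0.91), Gys1 (0.91), Ak4 (0.89) and 3000002C10Rik (0.89). On deviations within each time the 8 were Fam162a (0.92), Bnip3 (0.91), P4ha1 (0.91), Adm (0.91), Ak4 (0.89), Ero1a (0.89), Pfkfb3 (0.88) and P4ha2 (0.87). Both measures named Fam162a, Ero1a, Adm, Pfkfb3 and Ak4, 5 of the 11 genes. Fam162a rose by 0.83 (adjusted p = 0.0182) at 24 h and stood 0.79 above 0 h at 48 h (adjusted p = 0.0262). Mif, named only over the 17 arrays, rose by 1.51 (adjusted p = 0.00106) and stood 1.13 above 0 h at 48 h (adjusted p = 0.0122). Likeness over the 17 arrays includes the difference between times. A rise of the genes it named is therefore partly built into their choice. P4ha1, named only on deviations, differed from 0 h by 0.07 and 0.25 and did not pass at either time. P4ha2, also named only there, did not pass either (0.09 and 0.04).

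Several steps of glycolysis are served by more than 1 gene. The shift between genes of a step was compared within each array, as the log2 value of the member minus that of its counterpart. Slc2a1 gained on Slc2a2, the low-affinity transporter of beta cells, by 1.61 at 24 h and 1.19 at 48 h (exact two-sided permutation p = 0.00433 at both times, 0.00866 adjusted over 10 tests). Slc2a2 itself fell from 12.24 ± 0.07 in fresh islets (SD, n = 5) to 11.49 ± 0.14 at 24 h (SD, n = 6), and stood at 11.79 ± 0.13 at 48 h. Pfkp gained on Pfkm, the muscle type, by 1.14 and 1.04 (exact p = 0.00649 and 0.00216, adjusted 0.00928 and 0.00722). Pfkl gained on Pfkm by 0.92 and 0.89 (exact p = 0.00649 and 0.00216, adjusted 0.00928 and 0.00722). Pfkm was 9.11 ± 0.13 in fresh islets (SD, n = 5) and differed by -0.19 and -0.04, which did not pass in limma. These shifts had no overlap between the later and the 0 h arrays. They passed without both highest arrays and in the complete batches, there judged on the exact p without adjustment. How many other pairs of genes separate in this way was not counted. The shifts of Pfkp and Pfkl hold mostly their own rises over 0 h, given above, and are not separate evidence of a rise. With each gene taken as the mean of its probe sets, Pfkp gained on Pfkm by 0.64 and 0.51.

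Hk2 gained on Hk1, another hexokinase, whose mean of 3.92 at 0 h was near background, by 0.66 at 24 h (exact p = 0.0390, adjusted 0.0433) and 1.12 at 48 h (exact p = 0.00216, adjusted 0.00722). The 24 h shift was lost in 9 tests that left out an array (exact p = 0.0571 to 0.0952), namely any 0 h array or 24 h replicate 1, 3, 4 or 5. Of the tests that left out a 0 h or 24 h array, it was kept only without 24 h replicate 2 or 6. Leaving out a 48 h array could not change it, since that test does not use them. Ldha, the lactate dehydrogenase subunit that favours lactate, read 5.78, 5.48, 7.38, 5.57 and 5.76 at 0 h, 5.47 to 8.29 at 24 h and 6.58 to 7.50 at 48 h. The high fresh array, replicate 3, lay within the range of both later times. The differences of Ldha were 0.67 ± 0.40 (SE, adjusted p = 0.387) and 0.95 ± 0.40 (adjusted p = 0.164) and did not pass. Ldha minus Ldhb, the subunit that favours pyruvate, shifted by 1.11 at 48 h (exact p = 0.0260, adjusted 0.0325), and by 1.18 at 24 h, which did not pass (exact p = 0.0909). The 48 h shift was lost without 0 h replicate 2, 4 or 6 (exact p = 0.0524), and the 24 h one passed without 0 h replicate 3 (exact p = 0.0286) or 24 h replicate 5 (exact p = 0.0397). The smallest p that the 462 permutations can give is 0.00216, and both comparisons of each pair share the 0 h arrays. In the tests that left out an array, passing was judged on the exact p without adjustment, unlike in the main tests.

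**Figure D3:**
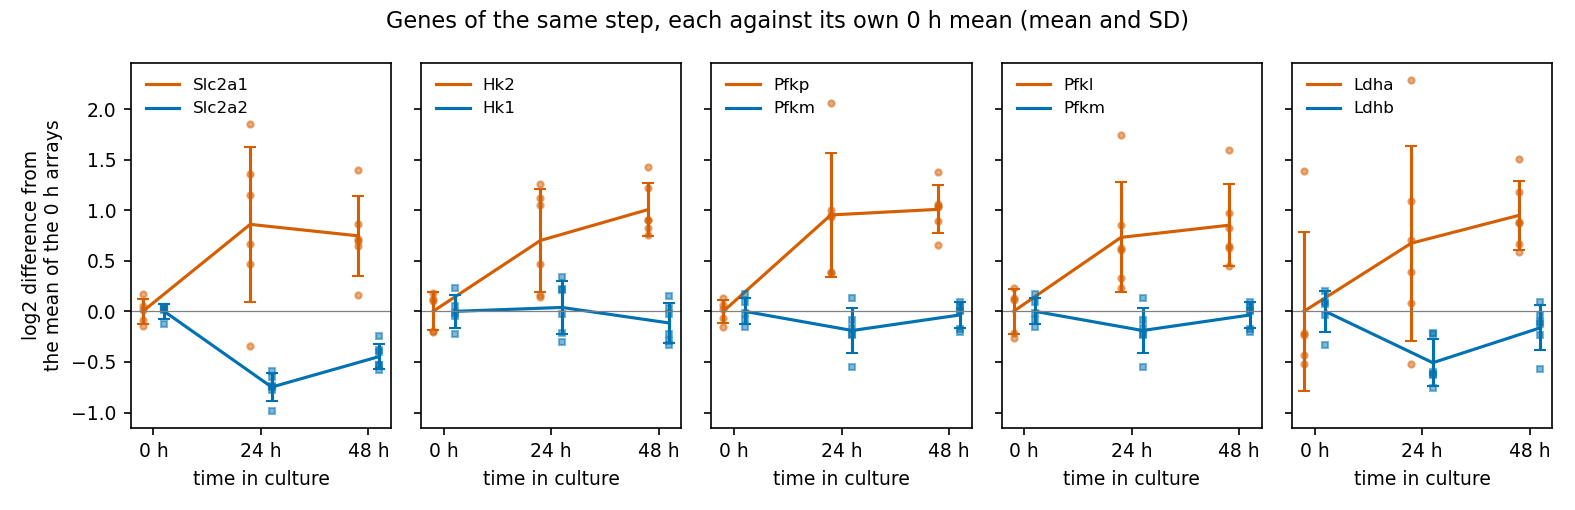
Log2 difference from the mean of the 0 h arrays (y axis) against time in culture (x axis) for 5 pairs of genes that serve the same step, the member or Ldha in orange and its counterpart in blue, with 1 point per array and lines and bars for mean and SD. Slc2a1 and Slc2a2 move apart, with means of 0.86 and -0.75 at 24 h, while Pfkm and Hk1 stay between -0.19 and 0.04 on average as Pfkp, Pfkl and Hk2 move up.

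The other glycolytic enzymes were counted against the shares of all genes. These were 5.44% higher and 6.66% lower at 24 h, and 6.45% and 5.27% at 48 h. Of 12 measured, 0 rose at either time, and Ldhb fell by 0.51 at 24 h (adjusted p = 0.0140) and did not pass at 48 h. With 12 genes, a count of 0 called higher is not read as a departure from those shares. The median difference of the 12 was 0.05 at 24 h and 0.15 at 48 h. Pkm, the pyruvate kinase of most tissues, differed by 0.07 ± 0.15 (SE, adjusted p = 0.875) and 0.31 ± 0.15 (adjusted p = 0.239). Aldoc, the brain aldolase, differed by 0.69 ± 0.24 (adjusted p = 0.0932) and 0.46 ± 0.24 (adjusted p = 0.303). Gpi1 and Gapdh had no tested probe set with 1 symbol in the annotation used here. Gapdh, the dehydrogenase between Tpi1 and Pgk1, is also read by the array's control probe sets, which were not tested. Its control nearest the transcript's end lay between 11.03 and 11.30 at 0 h, 11.77 and 12.39 at 24 h, and 11.72 and 12.05 at 48 h, with no overlap between fresh and cultured arrays.

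**Figure D4:**
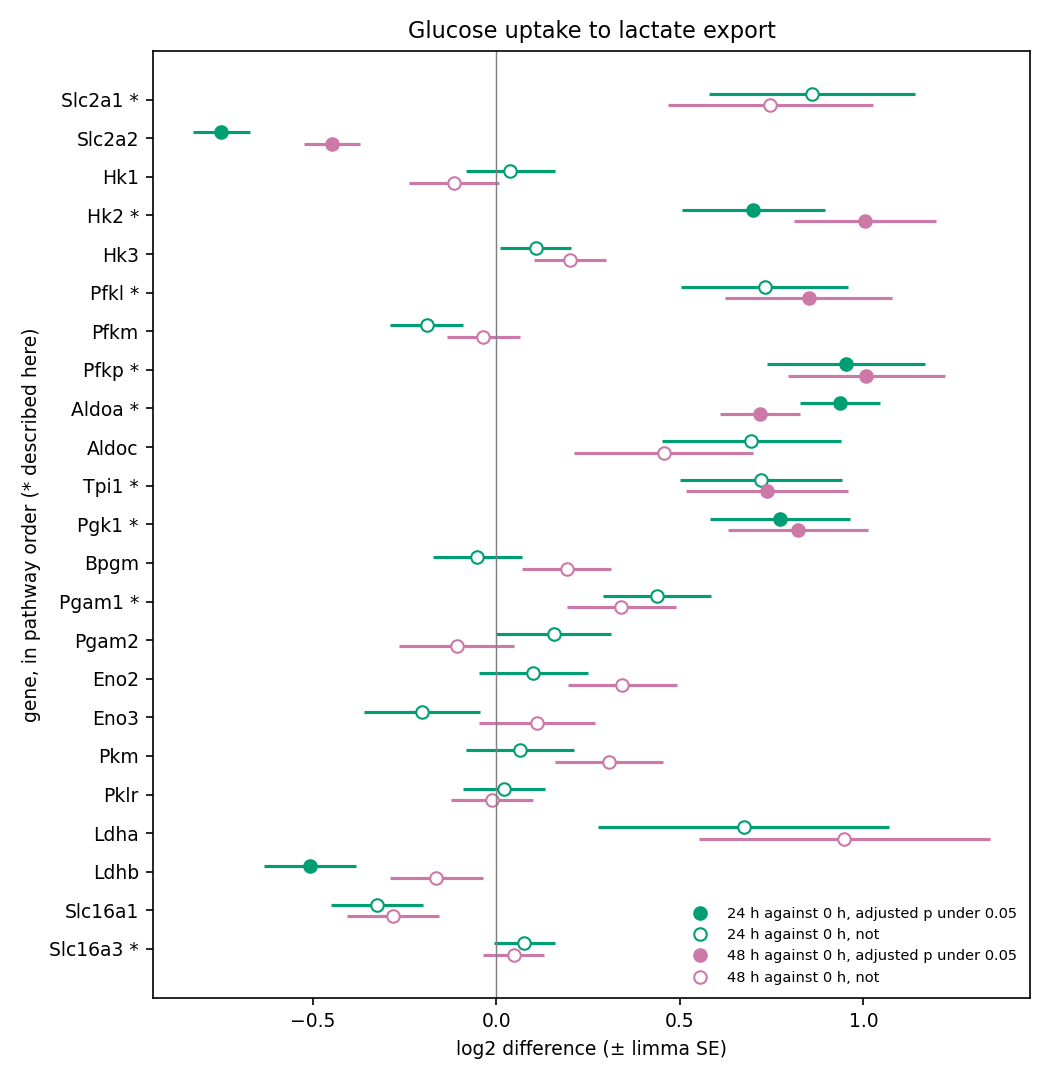
Log2 differences with limma's SE (x axis) at 24 h (green) and 48 h (pink) against 0 h for the members (starred) and the other measured genes of the pathway (y axis, in pathway order). Filled circles passed at an adjusted p under 0.05; members from Hk2 to Pgk1 lie between 0.70 and 1.01, and Slc2a2 and Ldhb are at -0.75 and -0.51 at 24 h.

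Among 16 other glucose and lactate transporters, 1 rose and 3 fell at 24 h, and 1 rose and 4 fell at 48 h. The rule called 5.44% of all genes higher and 6.66% lower at 24 h, and 6.45% and 5.27% at 48 h. Whether the counts of transporters, or of the regulators below, depart from those shares was not tested. Slc16a6, of the monocarboxylate transporter family, rose by 1.01 and 1.22. Slc2a2, the fructose transporter Slc2a5, and Slc2a8 fell at both times, at 24 h by 0.75, 0.41 and 0.34. The fourth at 48 h was Slc16a7, which was under the table's median. Of 13 regulators of glycolytic flux, 0 rose and 2 fell at each time. Txnip, which restrains glucose uptake and is itself induced by glucose, fell by 1.18 and 1.07. Epas1, which encodes HIF-2 alpha and is strongly expressed in endothelium, fell by 2.30 and 2.56. Pfkfb3, whose product makes an activator of phosphofructokinase, read 3.76, 3.62, 3.34, 3.27 and 3.35 at 0 h and 3.48 to 5.79 at 24 h. Its differences of 1.11 ± 0.34 (SE, adjusted p = 0.0514) and 1.06 ± 0.34 (adjusted p = 0.0646) did not pass. Hif1a, the HIF-1 alpha subunit, differed by 0.08 at 24 h (adjusted p = 0.792) and -0.0032 at 48 h (adjusted p = 0.993). At 24 h Arnt differed by -0.09, Mlxipl by -0.41, Mlxip by -0.38, Pfkfb2 by -0.24, Pfkfb4 by -0.13 and Tigar by -0.14, and these genes passed at neither time.

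Branches that leave glycolysis were mixed. Of all genes, 5.44% were called higher and 6.66% lower at 24 h, and 6.45% and 5.27% at 48 h. In the pentose phosphate pathway 3 of 8 genes rose at 24 h, Pgd by 0.85, Taldo1 by 0.45 and Tkt by 0.30. Pgd and Taldo1 were still higher at 48 h, and Pgd fell by 0.40 between 24 h and 48 h. Of 17 genes of gluconeogenesis and glycogen, 4 rose and 2 fell at 24 h. Fbp1, which opposes phosphofructokinase, rose by 1.55, Pck2 by 1.21, Gys1 by 0.53 and Gbe1 by 0.43. Slc37a4, the transporter of glucose phosphate into the endoplasmic reticulum, fell by 0.40, and G6pc2, the islet glucose phosphatase, fell by 0.29. At 48 h Fbp1 was 1.79, Pck2 1.14, Fbp2 0.94, Gys1 0.58 and Pgm1 0.50 above 0 h, and G6pc2 alone was lower (-0.31). For mitochondrial genes the counts were small, and no departure from those shares is read from them. Of 13 for pyruvate entry, Pdp1 fell by 0.69 at 24 h and Dlat rose by 0.22 at 48 h. Of 18 for the citric acid cycle, Fh1 rose by 0.32 and Idh3g fell by 0.33 at 24 h, and Fh1 was 0.82 higher at 48 h. Of 7 for the NADH shuttles, Got1 was higher at both times, by 0.65 and 0.61.

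Of 21 other HIF targets measured, a list that leaves out the members, 3 rose and 0 fell at each time, with median differences of 0.24 at 24 h and 0.25 at 48 h. Over all genes 5.44% were called higher and 6.66% lower at 24 h, and 6.45% and 5.27% at 48 h. Their median differences were -0.01 and -0.02. Hmox1 rose by 2.42, Ddit4 by 1.45 and Ero1a by 0.76 at 24 h. At 48 h Hmox1 was 1.25, Ero1a 0.56 and Angptl4 0.32 above 0 h, and Hmox1 fell by 1.18 between 24 h and 48 h. Adm, at 1.57 above 0 h at 24 h (adjusted p = 0.0779), and Bnip3, at 0.46 (adjusted p = 0.203), did not pass. The mean of the list lay between 6.18 and 6.35 on the 0 h arrays. It was highest on the same arrays as the members. It was 7.33 on 24 h replicate 1, where the rest of that time had 6.46 to 6.81, and 7.04 on 48 h replicate 6, where the rest had 6.46 to 6.73.

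Markers of the islets' cell types moved over the same times, and their part in the members' differences was not tested. Among all genes 5.44% were called higher and 6.66% lower at 24 h, and 6.45% and 5.27% at 48 h. Of 8 beta cell markers, 0 rose and 6 fell at 24 h and 5 fell at 48 h, and the list mean was 10.48 to 10.77 at 24 h and 10.74 to 10.83 at 48 h. Of 8 endothelial markers 5 fell at 24 h and 6 at 48 h, with a list mean of 6.16 to 6.53 at 0 h, 5.23 to 5.40 at 24 h and 4.61 to 5.14 at 48 h. Of 8 macrophage markers 1 rose and 6 fell at 24 h, and 2 rose and 3 fell at 48 h. Of 7 fibroblast and stellate markers 3 fell at 24 h and 3 rose at 48 h. The list mean of 9 acinar markers ran from 5.36 to 8.95 at 0 h, 3.98 to 7.64 at 24 h and 3.60 to 5.82 at 48 h, and 1 fell at 24 h and 5 at 48 h. Of 4 markers of the other endocrine cells 3 fell at 24 h and 1 at 48 h. Of 4 duct markers 1 rose at each time, and 2 erythroid markers were under the table's median and did not pass. The gap between the end and the start of the actin transcript, a measure of RNA integrity, averaged 2.14, 2.10 and 2.02 on the 0, 24 and 48 h arrays. The same gap for Gapdh was smaller on most cultured arrays. It lay between 3.80 and 4.13 on the fresh arrays (mean 3.91). The 24 h arrays spanned 2.97 to 3.97 (mean 3.52), and those of 48 h spanned 3.43 to 4.13 (mean 3.67). The part of these gaps in the members' differences was not tested.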

How the data were processed

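Expression in 17 portions of mouse islets was measured on 1-colour Affymetrix whole-genome arrays. The authors deposited log2 values, 1 per probe set and array, made with RMA according to the submitters' processing notes. No version of RMA is given in the sources used here. The method corrects background, forces arrays to 1 distribution and combines probes, which removes a shift shared by most transcripts and compresses weak signals. The base of the logarithm was read from the values, which ran from 1.55 to 13.81. The number of arrays limits the precision.

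Of 45101 probe sets, 64 controls were left out and 45037 were tested with no filter on level. Of these, 34945 had 1 symbol in the annotation, 932 had several and 9160 were not listed. limma 3.58.1 in R 4.3.3 fitted 1 mean per time to all 17 arrays (lmFit, eBayes), with Benjamini-Hochberg adjustment over all probe sets and a threshold of 0.05; the script was tested on simulated data. Errors of differences are limma's standard errors. Shifts between paired genes were tested by exact two-sided permutation. Named genes are the members, passing list genes (up to 6 per list by size, above the table's median), regulators of flux above that median, Ldha, Pkm, Hk1, Slc2a2, Slc16a1 and the 8 genes most like the members on each measure. Aldoc and Slc16a7 were named after its values were seen. The members, lists and tests were chosen with earlier results of these data known.

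Arrays were paired by batch as the study's design text lists them. Over 16 pairs of arrays of 1 batch the deviations from the means of their times correlated at a median of 0.00545 (-0.159 to 0.274), with 4 above 0.1. Over 80 pairs of different batches and times the median was -0.00978 (-0.302 to 0.366), with 19 above 0.1. Arrays of 1 batch were thus hardly more alike than arrays of different batches. The consensus correlation of limma within a batch was 0.0183. Results were recomputed with a batch block (fixed, or random), only the arrays compared, complete batches, array weights, a filter on level, a trended robust prior, quantile normalization again, median centring, no _x_at or _s_at probe sets, the mean of a gene's probe sets and each array left out; leaving out both arrays highest for the members, or both least like their time, and the alternatives for paired genes were added after seeing the data.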

Additional observations from a re-analysis of the deposited data

Results flagged for a closer look

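Arrays standing apart from the others of their time were looked for in 30 groups, 9 genes and their mean at each of 3 times, and were found in 5. Chance flags about 1 in 20 single groups. The 30 groups are not independent, since the genes varied together and the mean is made of them. The count of 5 can therefore not be set against that rate. On 24 h replicate 1, Pfkp was 9.52 (next highest array 8.47), Aldoa 12.43 (12.03) and Pgk1 11.88 (11.15). On 48 h replicate 6, Pgam1 was 10.05 (9.68) and the mean over the members 8.89 (8.48). In each case the gap to the nearest array, over the range of the group, was above Dixon's limit for 6 samples. No explanation for these values was tested.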

How the results depend on the processing

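Of 268 refitted values in each comparison, 0 changed sign at 24 h or 48 h against 0 h. The 4 members called at 24 h became 7 with the fixed replicate block by batch, in the complete batches, with array weights and with the filter on level, and 3 to 7 when 1 array was left out (7 without 24 h replicate 5); the other alternatives gave 3 to 6. The fixed block added Slc2a1, Pfkl, Tpi1 and Pgam1 and lost Hk2; the random block gave 5, 6 and 0. The 6 called at 48 h ranged from 5 to 7, and from 4 to 7 when 1 array was left out. The share of all genes called in each refit is not given here. A change in these counts may therefore not be particular to the members. The count between 24 h and 48 h was 0 in all alternatives run. Aldoa, Pfkp and Pgk1 kept both calls in every fit that held them, with Pfkp at 0.45 and 0.48 and Pgk1 at 0.49 and 0.49 for the mean of a gene's probe sets; Aldoa has only _x_at probe sets and drops out without these. Uncalled differences between 24 h and 48 h changed sign in 28 cases. Tpi1 was -0.10 in the complete batches, -0.082 with array weights, -0.0055 after quantile normalization again, -0.044 for the mean of its probe sets and -0.12 without both least similar arrays. In the complete batches Pgk1 was -0.034. With array weights Pgk1 was -0.013, Pfkp -0.028 and Slc16a3 0.00096. Without both least similar arrays Pgk1 was -0.0047, Pfkp -0.057 and Slc16a3 0.016. When 1 array was left out these ranged from -0.35 to 0.085 for Slc2a1, -0.059 to 0.28 for Pfkp, -0.029 to 0.32 for Pfkl, -0.12 to 0.21 for Tpi1, -0.11 to 0.20 for Pgk1, -0.18 to 0.016 for Pgam1 and -0.071 to 0.016 for Slc16a3. Why these values moved was not tested. Arrays without detection calls cannot separate Slc16a3, and Hk2 on some fresh arrays, from background.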
